A study of Homo sapiens with 9 samples.

Results

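The genes described here are 50 genes of autophagy and of the lysosome, named in a list that runs from the ULK1 kinase to the subunits of the lysosomal proton pump. They were found by Ensembl identifier and gene symbol among the 36753 genes with a value in each of 9 libraries, and all 50 had one. The cells were PANC-1, a long-established human pancreatic carcinoma line, taken 48 hours after transfection. The groups were siSIRT6, cells given small interfering RNA against SIRT6 (a histone deacylase that uses NAD), siKDM5C, cells given small interfering RNA against KDM5C (a demethylase of lysine 4 of histone H3), and control, with 3 libraries each. All groups share the line and the transfection, the column headers call the control libraries siNC with no further detail, and the labels do not say how many different RNAs were used against each target. Transcript levels are FPKM, fragments per kilobase of gene scaled to library depth, as deposited. A gene was tested where it had at least 1 FPKM in at least 3 libraries, and 49 of the 50 genes were among the 16135 tested. Fold changes are differences of log2(FPKM + 1) with their standard errors (SE), and a gene is said to have risen or fallen where the adjusted p of limma's moderated test, over all genes tested, was under 0.05. Whether the replicates came from separate cultures is not stated in the labels, and the spread behind the p-values may be technical.

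In autophagy, a double membrane closes around cytoplasm, damaged organelles or protein aggregates, and the resulting autophagosome fuses with a lysosome. The ULK1 kinase complex starts the process, a lipid kinase complex built on PIK3C3 and BECN1 marks the membrane, and conjugating enzymes attach proteins of the ATG8 family to it, which cargo receptors bind. The lysosome breaks the content down with hydrolases that need the acid made by its proton pump, and transcription factors of the MiT/TFE family (TFEB, TFE3 and MITF) switch on many of these genes. Pancreatic ductal carcinomas are known for high basal autophagy and for nuclear MiT/TFE factors.

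Both targets were low in the libraries named for them. SIRT6 had 0.795, 0.509 and 0.487 FPKM in the siSIRT6 libraries, against 6.2, 5.17 and 7.17 FPKM in control (log2 fold change -2.16, SE 0.12, adjusted p = 2.92e-06). KDM5C had 3.65, 3.31 and 3.89 FPKM in the siKDM5C libraries, against 18, 18.4 and 18.8 FPKM in control (-2.07, SE 0.05, adjusted p = 8e-08). Reads in genes implied by the steps between low values were about 18200000 to 26910000 per library, siSIRT6 replicate 3 being the deepest. Of 7 epithelial markers, the keratins KRT8, KRT18 and KRT19 averaged 148 FPKM or more in every group, and the summed level of all 7 ran from 1400 to 1520, 698 to 860 and 1090 to 1150 FPKM in siSIRT6, siKDM5C and control. KRT8 fell after siKDM5C (-0.94, adjusted p = 2.65e-05), KRT19 rose after siSIRT6 (1.03, adjusted p = 1.35e-05), and KRT18 rose after siSIRT6 (0.36) and fell after siKDM5C (-0.45). The other epithelial markers were far lower. KRT7 averaged 4.40, 3.91 and 6.38 FPKM in siSIRT6, siKDM5C and control and fell after both knockdowns (-0.45 and -0.60). EPCAM averaged 1.56, 2.93 and 0.988 FPKM and rose after both (0.36 and 0.98). With 1 control library at 1 FPKM or more, EPCAM passed the filter through the knockdown libraries, so a difference was built into its selection. MUC1 averaged 2.99, 3.01 and 2.29 FPKM and also rose after both (0.28 each). The epithelial cadherin CDH1 averaged 0.520, 0.140 and 0.591 FPKM in siSIRT6, siKDM5C and control. Of the markers of other cell types, PTPRC of leukocytes, PECAM1, CDH5 and VWF of endothelium and COL1A2, DCN and PDGFRB of fibroblasts were under 0.1 FPKM in every library. Among the other markers, CD68, itself a lysosomal membrane protein, was present at 35.9 ± 1.65, 80.0 ± 10.6 and 45.3 ± 8.12 FPKM in siSIRT6, siKDM5C and control (SD, n = 3). COL1A1, a fibroblast marker, was present at 41.4 ± 0.959, 15.6 ± 1.12 and 16.0 ± 0.514 FPKM. CD14 averaged 1.70, 1.95 and 2.96 FPKM, KDR 0.821, 0.658 and 0.524 FPKM and COL3A1 1.72, 1.10 and 0.320 FPKM. CD14 fell after both knockdowns. COL3A1 rose after both, but passed the filter only through the knockdown libraries, so a difference was built into its selection. The 4 summed leukocyte markers ran from 36.4 to 39.4, 72.8 to 93.7 and 44.1 to 58.2 FPKM in these groups, and the 6 summed fibroblast markers from 42.6 to 44.8, 16.0 to 18.1 and 16.0 to 17 FPKM. Their part in the results was not tested.

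After siSIRT6, 22 of the 49 tested genes rose, 8 fell and 19 did not pass the test, with a median log2 fold change of 0.03 against -0.05 over all genes tested. The share called was 61.2%, against 50.8% of all genes tested. Rises made up 44.9% of the tested autophagy and lysosome genes and 23.9% of all genes, and falls 16.3% and 26.9%. After siKDM5C, 19 rose, 9 fell and 21 did not pass, with a median of 0.09 against -0.02 over all genes tested. Here 57.1% were called, against 51.5% of all genes, with rises of 38.8% against 25.6% and falls of 18.4% against 25.9%. The rises in both comparisons include TFEB, which passed the filter only through knockdown libraries. About every other gene of the transcriptome passed in either comparison, so a call alone sets no gene of this list apart. The changes were of moderate size, since the median size of a called change was 0.40 after siSIRT6 and 0.36 after siKDM5C, against 0.45 and 0.44 over all called genes. The siSIRT6 libraries lay entirely above or below control for 35 genes (71.4%, against 65.5% of all genes), and the siKDM5C libraries for 29 (59.2%, against 55.7%). In these cell populations, a lower level per cell and fewer cells that express a gene cannot be told apart. Both comparisons use the same 3 control libraries, so their values are given side by side.

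**Figure D1:**
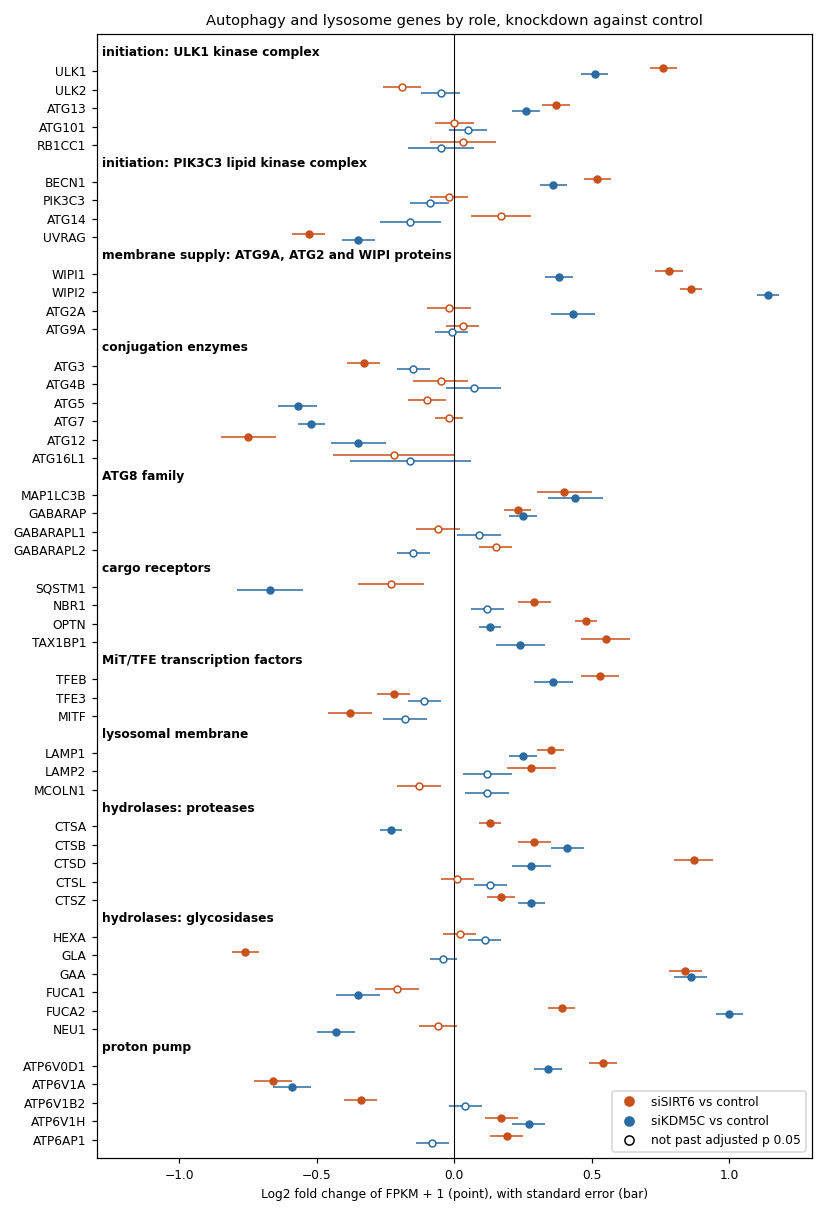
Log2 fold change of FPKM + 1 against control (horizontal axis) of the 49 tested genes in 11 roles, for siSIRT6 (orange) and siKDM5C (blue), with bars of 1 SE and open points where the adjusted p was not under 0.05. Called points lie on 1 side of 0 in 7 roles after siSIRT6 and in 6 after siKDM5C, and the values run from -0.76 for GLA after siSIRT6 to 1.14 for WIPI2 after siKDM5C. A role with 1 called point lies on 1 side by necessity.

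The plot of fold changes by role shows calls in 1 direction alone in 7 of 11 roles after siSIRT6 and in 6 of 11 after siKDM5C. After siSIRT6 the one-way rises were in the ULK1 complex (2 of 5 genes), membrane supply (2 of 4), the ATG8 family (2 of 4), the cargo receptors (3 of 4), the lysosomal membrane (2 of 3) and the proteases (4 of 5), and the one-way falls in the conjugation enzymes (2 of 6). After siKDM5C they were rises in the ULK1 complex (2 of 5), membrane supply (3 of 4), the ATG8 family (2 of 4), the MiT/TFE factors (1 of 3) and the lysosomal membrane (1 of 3), and falls in the conjugation enzymes (3 of 6). The MiT/TFE rise was that of TFEB, which passed the filter only through knockdown libraries. Over all genes tested, 23.9% rose and 26.9% fell after siSIRT6, and 25.6% rose and 25.9% fell after siKDM5C. A role with 1 called gene can only be one-way, and a role with few calls easily is. The number of one-way roles therefore does not show that the genes of a role moved together. Initiation, taken as the ULK1 and PIK3C3 complexes, had 3 rises and 1 fall among 9 genes in either comparison. The 4 cargo receptors had 3 rises and no fall after siSIRT6, and 2 rises and 1 fall after siKDM5C. The 11 hydrolases had 6 rises and 1 fall after siSIRT6, and 5 rises and 3 falls after siKDM5C. The 5 proton pump genes had 3 rises and 2 falls after siSIRT6, and 2 rises and 1 fall after siKDM5C. The median log2 fold changes after siSIRT6 were 0.03 for initiation, 0.38 for cargo receptors, 0.13 for hydrolases and 0.17 for the pump. After siKDM5C they were -0.05, 0.12, 0.13 and 0.04 in the same order. With 4 to 11 genes a role, these counts describe the genes listed and no test between roles was made.

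Of the ULK1 kinase complex, the kinase and 1 partner rose after both knockdowns. ULK1 (ENSG00000177169, chromosome 12, 131894651 to 131923167, GRCh38), the kinase that phosphorylates the other starters of autophagy, stood at 45.4, 43.9 and 44.0 FPKM in siSIRT6, at 35.4, 36.1 and 39.7 FPKM in siKDM5C and at 25.1, 26.1 and 26.0 FPKM in control. The 3 groups did not overlap, with siSIRT6 on top. ULK1 rose by 0.76 after siSIRT6 (SE 0.05, adjusted p = 1.02e-05) and by 0.51 after siKDM5C (SE 0.05, adjusted p = 9.5e-05), and was higher in siSIRT6 than in siKDM5C by 0.26 (adjusted p = 0.00559). ATG13, the adaptor that joins the kinase to the complex, rose by 0.37 (adjusted p = 0.000607) and 0.26 (adjusted p = 0.0037) after siSIRT6 and siKDM5C. The scaffold RB1CC1 averaged 17.2 ± 0.766, 16.4 ± 3.21 and 16.8 ± 1.41 FPKM in siSIRT6, siKDM5C and control, and the ATG13 stabiliser ATG101 averaged 19.5 ± 0.763, 20.3 ± 1.66 and 19.5 ± 1.43 FPKM. Neither passed in either comparison, nor did ULK2, the related kinase, at 2.05 ± 0.157, 2.36 ± 0.148 and 2.47 ± 0.202 FPKM, whose log2 difference of -0.19 after siSIRT6 had an adjusted p of 0.0516.

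In the lipid kinase complex, BECN1 and UVRAG moved in opposite directions. BECN1, the regulatory subunit shared by both forms of the complex, stood at 7.74, 7.49 and 7.5 FPKM in siSIRT6, at 6.44, 6.95 and 6.78 FPKM in siKDM5C and at 4.77, 5.27 and 4.97 FPKM in control. It rose by 0.52 (SE 0.05, adjusted p = 7.36e-05) after siSIRT6 and by 0.36 (SE 0.05, adjusted p = 0.000504) after siKDM5C, with no library of either knockdown inside the control range. UVRAG, which takes the place of ATG14 in the endosomal form, stood at 4.66, 4.53 and 4.84 FPKM in siSIRT6, at 5.39, 5.84 and 5.07 FPKM in siKDM5C and at 6.98, 7.45 and 7.21 FPKM in control. Every knockdown library was below every control, and UVRAG fell by 0.53 (SE 0.06, adjusted p = 0.000116) and 0.35 (SE 0.06, adjusted p = 0.0011) after siSIRT6 and siKDM5C. PIK3C3, the catalytic subunit, averaged 1.04 ± 0.0343, 0.949 ± 0.139 and 1.07 ± 0.0597 FPKM, and ATG14, the subunit of the autophagy form, 3.82 ± 0.469, 2.85 ± 0.567 and 3.29 ± 0.277 FPKM in siSIRT6, siKDM5C and control. Neither passed against control. Reads of BECN1 and of CNTD1, which overlaps 12.4% of its exons on the other strand, cannot be told apart if strand was not used in counting, and CNTD1 had log2 fold changes of 0.35 and 0.16.

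Among the genes that supply and shape the membrane, both WIPI genes rose after both knockdowns. WIPI2 (ENSG00000157954, chromosome 7, 5190188 to 5233826, GRCh38), which reads the lipid mark and recruits the conjugation machinery, stood at 11.2, 11.5 and 11.5 FPKM in siSIRT6, at 13.7, 14.1 and 14.5 FPKM in siKDM5C and at 5.72, 5.93 and 5.83 FPKM in control. The siKDM5C mean was 242% and the siSIRT6 mean 196% of the control mean. WIPI2 rose by 0.86 (SE 0.04, adjusted p = 2.09e-06) after siSIRT6 and by 1.14 (SE 0.04, adjusted p = 5.47e-07) after siKDM5C, the largest rise of the 49 tested genes there, and was lower in siSIRT6 than in siKDM5C (-0.28, adjusted p = 0.0013). WIPI1, its relative, stood at 10.9, 10.9 and 11.2 FPKM in siSIRT6, at 7.59, 8.07 and 8.65 FPKM in siKDM5C and at 5.78, 6.12 and 6.14 FPKM in control. Control was lowest for both genes, but for WIPI1 siSIRT6 stood above siKDM5C, with a rise of 0.78 (adjusted p = 1.06e-05) after siSIRT6, of 0.38 (adjusted p = 0.000604) after siKDM5C, and a difference of 0.40 (adjusted p = 0.000638) between them. ARSG, which covers 24.3% of the WIPI1 exons on the other strand, had log2 fold changes of 0.38 and 0.23, and the sources used here do not give the counting strand.

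ATG2A, a lipid transfer protein that feeds the growing membrane, stood at 8.16, 7.48 and 8.24 FPKM in siSIRT6, at 10.2, 10.9 and 13.0 FPKM in siKDM5C and at 8.0, 8.04 and 8.26 FPKM in control. The siKDM5C libraries were the high ones, with a rise of 0.43 (SE 0.08, adjusted p = 0.0024), while the siSIRT6 difference of -0.02 (95% interval -0.21 to 0.16) did not pass. Its paralog ATG2B was the gene left untested, since 1 control library alone reached 1 FPKM. ATG2B averaged 0.551 ± 0.0122, 0.729 ± 0.0409 and 0.961 ± 0.0923 FPKM in siSIRT6, siKDM5C and control. With no filter on low values the ATG2B differences were -0.34 (adjusted p = 0.00441) and -0.18 (adjusted p = 0.0592). ATG9A, the membrane protein of the seed vesicles, averaged 27.1 ± 0.924, 26.4 ± 1.83 and 26.5 ± 0.367 FPKM and did not pass. AC068946.2, an annotated gene that covers 38.8% of the ATG9A exons on the same strand, fell by 0.17 after siSIRT6 (adjusted p = 0.0424). It did not pass after siKDM5C (adjusted p = 0.957), and whether it shares reads with ATG9A was not tested.

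None of the 6 conjugation genes of the list rose. After siSIRT6 2 of them fell, and after siKDM5C 3. ATG12 (chromosome 5, 115828200 to 115841858), the ubiquitin-like protein that is joined to ATG5, stood at 5.12, 5.54 and 5.32 FPKM in siSIRT6, at 7.23, 8.32 and 6.58 FPKM in siKDM5C and at 10.4, 10.2 and 8.35 FPKM in control. The knockdown libraries were all below control, the siSIRT6 ones furthest, with log2 fold changes of -0.75 (SE 0.10, adjusted p = 0.000328) and -0.35 (SE 0.10, adjusted p = 0.0163). The ATG12 call after siKDM5C failed in the fits that left out siKDM5C replicate 3 (adjusted p = 0.0519), or control replicate 1 (0.06) or 2 (0.0579). AP3S1, which overlaps 4.3% of the ATG12 exons on the other strand, had log2 fold changes of 0.54 and 0.51.

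ATG5 and ATG7 were low in siKDM5C libraries. ATG5, the partner of ATG12, stood at 12, 12.3 and 12.1 FPKM in siSIRT6, at 9.08, 8.92 and 7.39 FPKM in siKDM5C and at 13.1, 13.6 and 12.4 FPKM in control. It fell by 0.57 (SE 0.07, adjusted p = 0.000302) after siKDM5C, and the siSIRT6 difference of -0.10 (adjusted p = 0.294) did not pass although no siSIRT6 library reached the lowest control. ATG7, the activating enzyme of both conjugation chains, stood at 9.75, 9.92 and 10.3 FPKM in siSIRT6, at 6.68, 6.9 and 6.83 FPKM in siKDM5C and at 10.6, 10.3 and 9.6 FPKM in control. The siSIRT6 and control ranges of ATG7 overlapped (-0.02, 95% interval -0.14 to 0.09), and the siKDM5C libraries lay below both, a fall of 0.52 (SE 0.05, adjusted p = 6.44e-05). VGLL4, which covers 18.1% of the ATG7 exons on the other strand, moved with it after siKDM5C (-0.84, adjusted p = 6.05e-06), and whether the genes share reads was not tested.

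The other conjugation genes changed less. ATG3, the enzyme that hands ATG8 proteins to the lipid, averaged 10.3 ± 0.232, 11.8 ± 0.834 and 13.2 ± 0.376 FPKM in siSIRT6, siKDM5C and control, and fell by 0.33 after siSIRT6 (adjusted p = 0.00156) but did not pass after siKDM5C (-0.15, adjusted p = 0.0548). ATG4B, the protease that primes ATG8 proteins, averaged 9.30 ± 0.635, 10.2 ± 1.13 and 9.66 ± 1.16 FPKM. ATG16L1, which directs the conjugation to the membrane, averaged 2.03 ± 0.545, 2.24 ± 1.05 and 2.51 ± 0.289 FPKM. Neither ATG4B nor ATG16L1 passed, and the interval for ATG16L1 after siSIRT6 (-0.73 to 0.28) was the widest of that comparison among the conjugation genes.

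Of the ATG8 family, the proteins that coat the autophagosome membrane and tether cargo, 2 of 4 rose after either knockdown. MAP1LC3B, the LC3 protein read in most autophagy assays, stood at 28.1, 28.4 and 28.4 FPKM in siSIRT6, at 27.4, 32.8 and 27.2 FPKM in siKDM5C and at 22.8, 22.8 and 18.2 FPKM in control. GABARAP stood at 62.1, 67.7 and 66.6 FPKM in siSIRT6, at 66.5, 64.3 and 68.1 FPKM in siKDM5C and at 55.9, 54.2 and 56.3 FPKM in control. For both genes every knockdown library was above every control. MAP1LC3B rose by 0.40 (SE 0.10, adjusted p = 0.0097) and 0.44 (SE 0.10, adjusted p = 0.00645), and GABARAP by 0.23 (adjusted p = 0.00492) and 0.25 (adjusted p = 0.00323) after siSIRT6 and siKDM5C. AC120057.2, an annotated gene that covers 30.5% of the GABARAP exons on the same strand, had 0.22 in both comparisons. GABARAPL1 averaged 15.2 ± 0.0245, 17 ± 1.33 and 16.0 ± 1.56 FPKM and did not pass. GABARAPL2 averaged 12.3 ± 0.305, 9.80 ± 0.670 and 10.9 ± 0.359 FPKM, did not pass against control (0.15 and -0.15), and was higher in siSIRT6 than in siKDM5C (0.30, adjusted p = 0.00372).

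**Figure D2:**
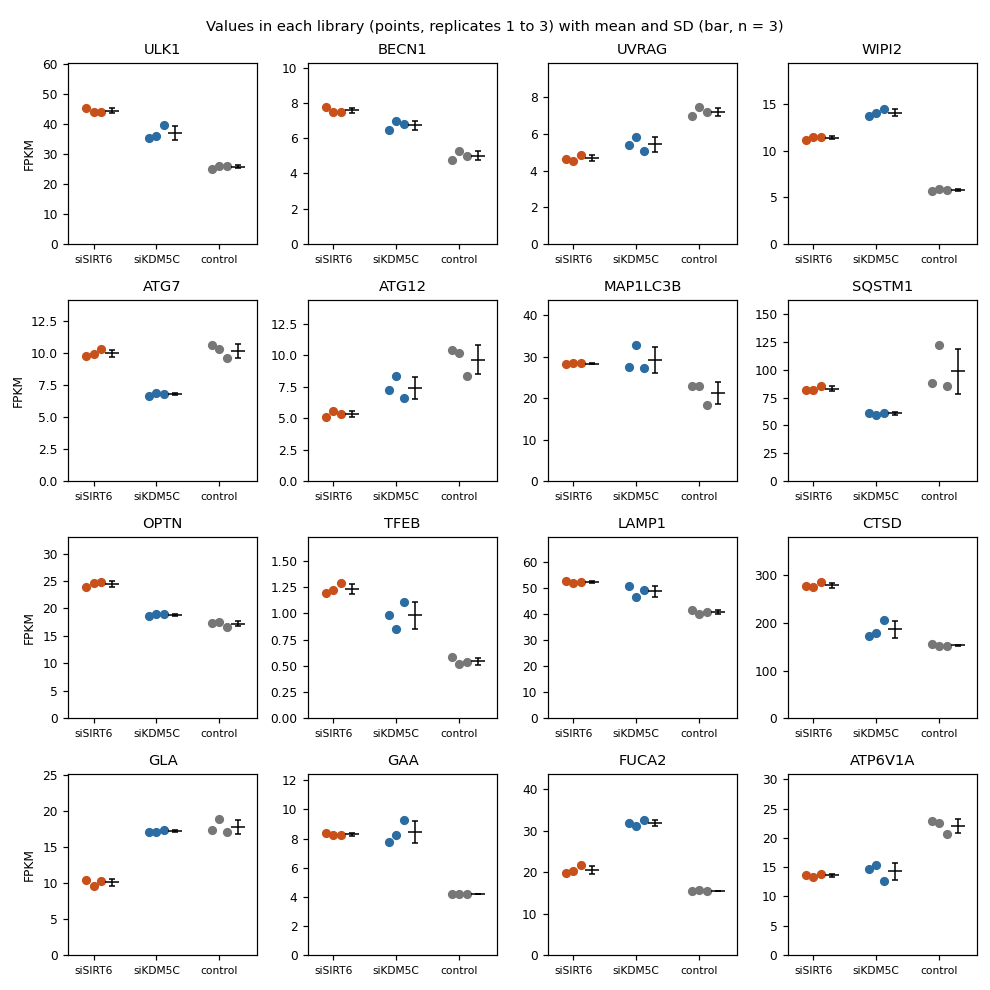
FPKM (vertical axes, each from 0) of 16 of the genes in each of 9 libraries, for siSIRT6, siKDM5C and control, with the mean and SD of 3 libraries as a bar. ULK1, BECN1, WIPI2, MAP1LC3B, LAMP1 and GAA sat above control in all 6 knockdown libraries, UVRAG, ATG12 and ATP6V1A below it, and GLA was low in siSIRT6 alone.

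The cargo receptors bind both ubiquitin-marked cargo and ATG8 proteins. After siKDM5C 1 of them fell, and 2 had small rises that were each lost in 10 of 16 alternatives. SQSTM1 (p62; chromosome 5, 179806398 to 179838078), the receptor that is itself degraded by autophagy, stood at 81.7, 81.9 and 85.4 FPKM in siSIRT6, at 61.2, 59.5 and 61.5 FPKM in siKDM5C and at 87.9, 122 and 85.6 FPKM in control. Control replicate 2 was well above the other control libraries, and the siKDM5C libraries were below all others. SQSTM1 fell by 0.67 (SE 0.12, adjusted p = 0.00181) after siKDM5C, and the difference of -0.23 after siSIRT6 did not pass (adjusted p = 0.147). Without control replicate 2 the SQSTM1 values were -0.51 after siKDM5C (adjusted p = 0.000318) and -0.06 after siSIRT6 (adjusted p = 0.371). MRNIP, which covers 20.7% of the SQSTM1 exons on the other strand, had -0.00 and -0.45, neither past the threshold.

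OPTN (chromosome 10, 13099449 to 13138308), a receptor for damaged mitochondria and bacteria, stood at 23.9, 24.6 and 24.9 FPKM in siSIRT6, at 18.7, 19.0 and 18.9 FPKM in siKDM5C and at 17.3, 17.6 and 16.7 FPKM in control. The siSIRT6 libraries were clearly the highest, a rise of 0.48 (SE 0.04, adjusted p = 4.12e-05). TAX1BP1, a receptor for aggregates, stood at 27.4, 28.6 and 27.8 FPKM in siSIRT6, at 22.8, 25.0 and 19.2 FPKM in siKDM5C and at 18.8, 19.2 and 18.1 FPKM in control. TAX1BP1 rose by 0.55 (SE 0.09, adjusted p = 0.000823) after siSIRT6, and its lowest siKDM5C library lay at the level of the highest control. After siKDM5C both calls were small, 0.13 for OPTN (adjusted p = 0.0361) and 0.24 for TAX1BP1 (adjusted p = 0.0462), and each was lost in 10 of 16 alternatives, with ranges of 0.023 to 0.112 and 0.00206 to 0.116. Without siKDM5C replicate 2 the TAX1BP1 value was 0.15 (adjusted p = 0.114). NBR1, a receptor related to SQSTM1, rose after siSIRT6 (0.29, adjusted p = 0.00468) and did not pass after siKDM5C (0.12, adjusted p = 0.13).

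Of the MiT/TFE transcription factors, TFEB, at a low level, was called higher after both knockdowns. TFE3 and MITF were called lower after siSIRT6. TFEB stood at 1.19, 1.22 and 1.29 FPKM in siSIRT6, at 0.989, 0.852 and 1.11 FPKM in siKDM5C and at 0.58, 0.515 and 0.534 FPKM in control. No knockdown library was in the control range. TFEB entered the test only because the siSIRT6 libraries and 1 siKDM5C library reached 1 FPKM, so a difference was built into its selection. Its log2 fold changes were 0.53 (SE 0.07, adjusted p = 0.000444) and 0.36 (SE 0.07, adjusted p = 0.00366), and on the log2(FPKM + 0.1) scale they were 1.05 and 0.75. With no filter on low values both TFEB calls held (adjusted p = 0.001 and 0.00651). TFE3, the most abundant of the family here, averaged 24.3 ± 0.630, 26.3 ± 1.73 and 28.4 ± 0.879 FPKM in siSIRT6, siKDM5C and control, and fell by 0.22 after siSIRT6 (adjusted p = 0.0116). MITF averaged 2.21 ± 0.103, 2.70 ± 0.311 and 3.19 ± 0.246 FPKM and fell by 0.38 after siSIRT6 (adjusted p = 0.00329). Neither passed after siKDM5C (-0.11 and -0.18).

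Factors of this family bind the letters CACGTG, above all within TCACGTGA, and promoters of lysosomal genes are known for them. RefSeq promoter windows (GRCh38.p14, 250 bases before to 50 after the start) were at hand for 42 of the 50 genes. ATP6V1B2, LAMP2, ATP6V1H, ATP6V1A, CTSB, RB1CC1, UVRAG and HEXA were the others. On either strand CACGTG was in 9 of the 42 windows (21.43%), against 12.87% of 9800 tested genes and 8.77% of all 27305 windows. The longer TCACGTGA, which contains it, was in 6 of 42 (14.29%), against 2.38% of tested genes and 1.18% of all. The windows of LAMP1, GAA, CTSD and ATP6V0D1 are shown because these genes rose after both knockdowns and hold the letters, and that of WIPI2 because it rose most after siKDM5C and holds none. They are LAMP1 at chr13:113296989-113297288 on the plus strand, GAA at chr17:80101331-80101630 on the plus strand, CTSD at chr11:1763878-1764177 on the minus strand, ATP6V0D1 at chr16:67481108-67481407 on the minus strand and WIPI2 at chr7:5189983-5190282 on the plus strand. Each is written from its upstream end with CACGTG in capitals.
LAMP1: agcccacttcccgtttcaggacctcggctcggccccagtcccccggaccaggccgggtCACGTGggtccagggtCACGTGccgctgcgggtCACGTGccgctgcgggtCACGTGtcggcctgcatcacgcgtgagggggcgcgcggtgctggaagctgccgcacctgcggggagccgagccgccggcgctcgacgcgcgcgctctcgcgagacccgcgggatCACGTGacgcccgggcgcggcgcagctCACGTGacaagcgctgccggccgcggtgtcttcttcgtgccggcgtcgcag
GAA: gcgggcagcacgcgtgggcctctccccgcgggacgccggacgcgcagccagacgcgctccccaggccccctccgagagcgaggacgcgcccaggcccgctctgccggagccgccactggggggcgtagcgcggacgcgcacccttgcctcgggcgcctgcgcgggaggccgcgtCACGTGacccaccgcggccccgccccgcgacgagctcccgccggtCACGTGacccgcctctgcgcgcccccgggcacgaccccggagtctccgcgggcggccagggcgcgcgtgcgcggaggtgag
CTSD: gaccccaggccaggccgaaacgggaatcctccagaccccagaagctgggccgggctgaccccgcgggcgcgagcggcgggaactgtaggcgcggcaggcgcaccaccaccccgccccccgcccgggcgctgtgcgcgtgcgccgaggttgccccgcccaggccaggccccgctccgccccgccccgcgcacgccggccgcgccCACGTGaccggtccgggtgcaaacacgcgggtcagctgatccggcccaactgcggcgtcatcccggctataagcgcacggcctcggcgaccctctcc
ATP6V0D1: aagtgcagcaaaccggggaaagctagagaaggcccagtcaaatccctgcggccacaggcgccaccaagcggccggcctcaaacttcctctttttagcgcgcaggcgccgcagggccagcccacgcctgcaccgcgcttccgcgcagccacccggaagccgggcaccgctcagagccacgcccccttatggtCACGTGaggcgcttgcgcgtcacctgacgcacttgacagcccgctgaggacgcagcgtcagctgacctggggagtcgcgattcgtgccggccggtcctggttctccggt
WIPI2: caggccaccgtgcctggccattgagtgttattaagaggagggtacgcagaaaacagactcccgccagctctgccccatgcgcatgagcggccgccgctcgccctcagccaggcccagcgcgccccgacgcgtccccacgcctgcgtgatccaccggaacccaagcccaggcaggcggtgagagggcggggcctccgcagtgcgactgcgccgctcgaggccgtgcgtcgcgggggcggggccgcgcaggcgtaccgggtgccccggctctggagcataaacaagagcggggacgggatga
The LAMP1 window holds CACGTG 6 times and TCACGTGA 2 times, the GAA window 2 times each, the ATP6V0D1 window 1 time each, and the CTSD window CACGTG 1 time. The 9 genes with CACGTG were ATG14, ATG3, ATP6V0D1, CTSA, CTSD, GAA, LAMP1, MCOLN1 and NEU1. After siSIRT6 5 of them rose, 1 fell and 3 did not pass, and after siKDM5C 4 rose, 2 fell and 3 did not pass. Of the 33 genes with a window and no CACGTG, 14 rose, 4 fell, 14 did not pass and 1 was not tested after siSIRT6, and 13, 5, 14 and 1 after siKDM5C. A match gives the letters and says nothing of binding in these cells.

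The lysosomal membrane gene LAMP1, whose glycoprotein lines the inner face of the organelle, stood at 52.8, 51.8 and 52.3 FPKM in siSIRT6, at 50.8, 46.6 and 49.0 FPKM in siKDM5C and at 41.6, 39.8 and 40.9 FPKM in control. The knockdown libraries were all higher than control, with rises of 0.35 (SE 0.05, adjusted p = 0.000387) and 0.25 (SE 0.05, adjusted p = 0.00229). LAMP2, which also serves chaperone-mediated autophagy, averaged 35.3 ± 0.607, 31.7 ± 4.33 and 28.9 ± 1.81 FPKM in siSIRT6, siKDM5C and control. Its rise of 0.28 after siSIRT6 (adjusted p = 0.0303) was lost in 6 of 16 alternatives (range 0.00433 to 0.0942), among them without siSIRT6 replicate 1 (0.0691), 2 (0.085) or 3 (0.0676) and without control replicate 2 (0.0531) or 3 (0.0942). MCOLN1, a calcium channel of the lysosome, averaged 4.42 ± 0.236, 5.46 ± 0.155 and 4.95 ± 0.626 FPKM and did not pass against control.

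Of the 5 lysosomal proteases, 4 rose after siSIRT6, and 3 rose and 1 fell after siKDM5C. CTSD (ENSG00000117984, chromosome 11, 1752752 to 1764573, GRCh38), the aspartic protease cathepsin D and the most abundant gene of the list in every group, stood at 277, 276 and 286 FPKM in siSIRT6, at 173, 180 and 206 FPKM in siKDM5C and at 155, 151 and 152 FPKM in control. The siSIRT6 libraries were far above the rest, with a mean of 183% of the control mean. CTSD rose by 0.87 (SE 0.07, adjusted p = 1.78e-05) after siSIRT6 and by 0.28 (SE 0.07, adjusted p = 0.00817) after siKDM5C. AC068580.4, an annotated gene that covers 41.7% of the CTSD exons on the same strand, moved alike (0.87 and 0.27), so the counting could split reads between them. CTSB, a cysteine protease, stood at 16.8, 16.7 and 16.3 FPKM in siSIRT6, at 16.6, 18.7 and 18.9 FPKM in siKDM5C and at 13.4, 12.9 and 13.8 FPKM in control. All knockdown libraries of CTSB exceeded control, with rises of 0.29 (adjusted p = 0.00306) and 0.41 (SE 0.06, adjusted p = 0.000526).

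CTSA, a serine carboxypeptidase that also protects NEU1 and the beta-galactosidase, stood at 31.5, 31.2 and 30.6 FPKM in siSIRT6, at 24.0, 23.3 and 24.7 FPKM in siKDM5C and at 28.0, 28.1 and 29.1 FPKM in control. Its groups stood apart on both sides of control, with a rise of 0.13 after siSIRT6 (adjusted p = 0.0394), which was lost in 7 of 16 alternatives, and a fall of 0.23 after siKDM5C (adjusted p = 0.00245). CTSZ, a carboxypeptidase of the cysteine class, rose by 0.17 (adjusted p = 0.0145) and 0.28 (adjusted p = 0.00128), and its siSIRT6 call failed in the fits that left out siSIRT6 replicate 1 (0.0546) or control replicate 2 (0.0538). CTSL, a cysteine endopeptidase, averaged 12 ± 0.300, 13.2 ± 0.870 and 12 ± 0.433 FPKM in siSIRT6, siKDM5C and control and did not pass.

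The fold changes of the 6 glycosidases ran from -0.76 to 0.84 after siSIRT6 and from -0.43 to 1.00 after siKDM5C. GLA (ENSG00000102393, chromosome X, 101397803 to 101408012, GRCh38), the alpha-galactosidase lacking in Fabry disease, stood at 10.4, 9.56 and 10.2 FPKM in siSIRT6, at 17, 17.1 and 17.3 FPKM in siKDM5C and at 17.3, 18.8 and 17.1 FPKM in control. On average siSIRT6 reached 56.8% of control, and GLA fell by 0.76 (SE 0.05, adjusted p = 1.08e-05), the largest fall of the 49 genes there. After siKDM5C the GLA ranges overlapped (-0.04, 95% interval -0.17 to 0.08). GAA (ENSG00000171298, chromosome 17, 80101556 to 80119879, GRCh38), the alpha-glucosidase that degrades glycogen and is lacking in Pompe disease, stood at 8.4, 8.22 and 8.28 FPKM in siSIRT6, at 7.77, 8.27 and 9.3 FPKM in siKDM5C and at 4.2, 4.18 and 4.19 FPKM in control. The siSIRT6 and siKDM5C means of GAA were 198% and 202% of the control mean, and every knockdown library was above every control. GAA rose by 0.84 (SE 0.06, adjusted p = 1.34e-05) and 0.86 (SE 0.06, adjusted p = 1.22e-05), and the knockdowns differed by -0.02 (95% interval -0.16 to 0.12).

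FUCA2, a fucosidase found in lysosomes and secreted, stood at 19.7, 20.4 and 21.7 FPKM in siSIRT6, at 31.8, 31.2 and 32.7 FPKM in siKDM5C and at 15.4, 15.6 and 15.4 FPKM in control. The groups were stepped, siKDM5C above siSIRT6 above control, with rises of 0.39 (SE 0.05, adjusted p = 0.00026) after siSIRT6 and 1.00 (SE 0.05, adjusted p = 1.56e-06) after siKDM5C. AL031320.2 and VDAC1P8, which cover 10.8% and 13.6% of the FUCA2 exons on the other strand, had 0.35 and 0.26 after siSIRT6 and 0.85 and 0.79 after siKDM5C. FUCA1, the main lysosomal fucosidase, averaged 13.0 ± 0.576, 11.7 ± 0.788 and 15.2 ± 1.44 FPKM in siSIRT6, siKDM5C and control, and fell after siKDM5C (-0.35, adjusted p = 0.00568) but did not pass after siSIRT6 (-0.21, adjusted p = 0.0525). NEU1, a sialidase, stood at 8.55, 9.08 and 9.34 FPKM in siSIRT6, at 6.24, 6.41 and 7.59 FPKM in siKDM5C and at 9.81, 9.21 and 9.23 FPKM in control. The siKDM5C libraries of NEU1 were the lowest, a fall of 0.43 (SE 0.07, adjusted p = 0.00132), and siSIRT6 overlapped control. HEXA, a subunit of beta-hexosaminidase, averaged 5.62 ± 0.0870, 6.08 ± 0.356 and 5.55 ± 0.372 FPKM and did not pass.

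Subunits of the proton pump, which work in fixed proportions in 1 complex, did not move together. ATP6V1A, the subunit that hydrolyses ATP, stood at 13.7, 13.3 and 13.8 FPKM in siSIRT6, at 14.7, 15.4 and 12.7 FPKM in siKDM5C and at 22.8, 22.6 and 20.6 FPKM in control. All 6 knockdown libraries were below control, falls of 0.66 (SE 0.07, adjusted p = 0.000148) and 0.59 (SE 0.07, adjusted p = 0.000256). ATP6V0D1, which links the membrane ring to the central stalk, stood at 7.65, 7.76 and 7.73 FPKM in siSIRT6, at 6.69, 6.32 and 6.77 FPKM in siKDM5C and at 5.07, 5.16 and 4.78 FPKM in control. It went the other way, with rises of 0.54 (SE 0.05, adjusted p = 4.08e-05) and 0.34 (SE 0.05, adjusted p = 0.000519). ATP6V1B2, the partner of ATP6V1A in the catalytic ring, averaged 4.55 ± 0.135, 6.23 ± 0.497 and 6.01 ± 0.285 FPKM in siSIRT6, siKDM5C and control, and fell after siSIRT6 (-0.34, adjusted p = 0.00214). ATP6V1H, a regulatory subunit, rose by 0.17 (adjusted p = 0.0334) and 0.27 (adjusted p = 0.00409). ATP6AP1, an accessory protein of pump assembly, rose after siSIRT6 (0.19, adjusted p = 0.0193) and did not pass after siKDM5C (-0.08). After siSIRT6 the ATP6V1H call was lost in 5 of 16 alternatives (range 0.0141 to 0.123) and the ATP6AP1 call in 3 of 16 (range 0.00374 to 0.0688). For ATP6V1H these were the fits without siSIRT6 replicate 1 (0.123) or 3 (0.0966) or control replicate 1 (0.103), 2 (0.0533) or 3 (0.0713), and for ATP6AP1 those without siSIRT6 replicate 1 (0.0594) or 3 (0.065) or control replicate 2 (0.0688).

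Set directly against each other, the knockdowns differed for 24 of the 49 genes, 15 higher in siSIRT6 and 9 lower in siSIRT6. The share called was 49.0%, against 39.9% of all genes tested, with 30.6% higher against 18.6% and 18.4% lower against 21.3%. CTSD had the largest positive difference (0.59, SE 0.07, adjusted p = 0.000253), followed by ATG7 (0.49, adjusted p = 0.000139), ATG5 (0.48, adjusted p = 0.00133) and SQSTM1 (0.44, adjusted p = 0.0178). WIPI1, NEU1, OPTN and CTSA were also higher in siSIRT6, by 0.36 to 0.40. GLA had the largest negative difference (-0.71, SE 0.05, adjusted p = 2.85e-05), followed by FUCA2 (-0.61, adjusted p = 4.04e-05), ATG2A (-0.46, adjusted p = 0.00271), ATG12 (-0.40, adjusted p = 0.0116) and ATP6V1B2 (-0.38, adjusted p = 0.00166). For ATP6V1A (-0.06, 95% interval -0.23 to 0.11), GABARAP (-0.02, -0.13 to 0.10) and MAP1LC3B (-0.04, -0.26 to 0.19) no difference was detected, and the intervals bound what could have been missed. Leaving out siSIRT6 replicate 3 ended the SQSTM1 call (adjusted p = 0.0582), and the TAX1BP1 call (0.32, adjusted p = 0.0173) failed when siSIRT6 replicate 2 was left out (0.0596). Smaller calls for ATG3, ATG14, BECN1, UVRAG and MCOLN1, with main adjusted p from 0.032 to 0.0471, were each lost in 9 to 11 alternatives.

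**Figure D3:**
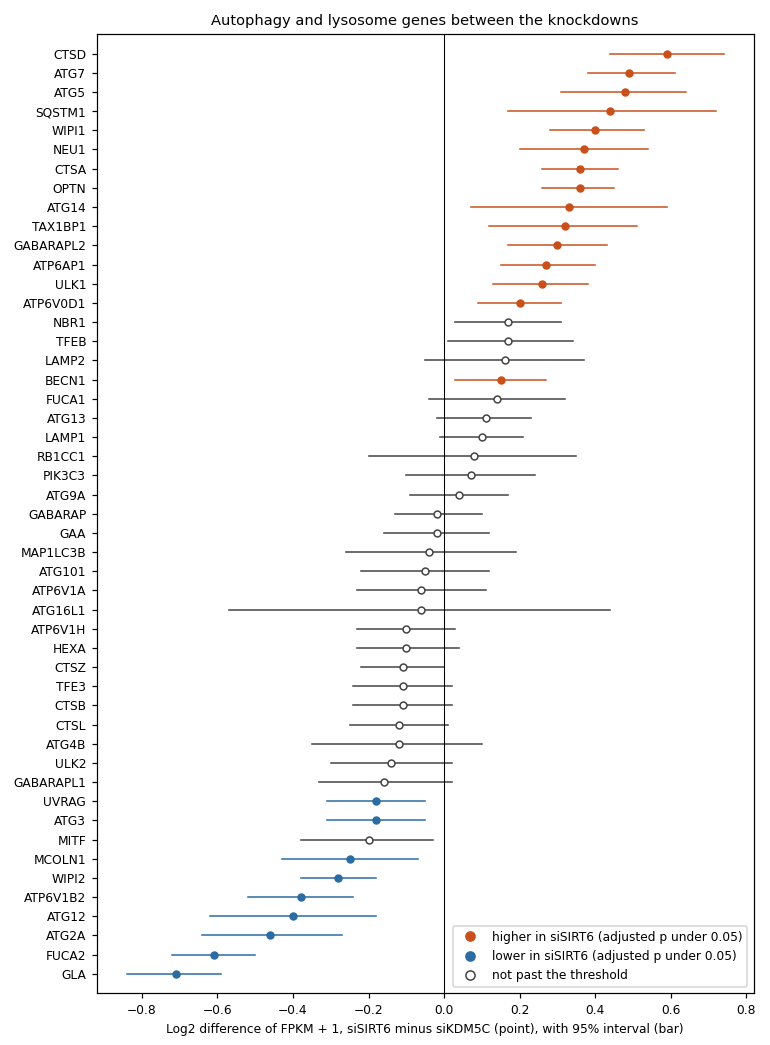
Log2 difference of FPKM + 1, siSIRT6 minus siKDM5C (horizontal axis), of the 49 tested genes, with bars of the 95% interval, filled where the adjusted p was under 0.05. The differences run from -0.71 for GLA to 0.59 for CTSD, with 15 filled points above 0 and 9 below it.

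As the plot of differences between the knockdowns shows, the genes at both ends come from different roles. Among the conjugation genes, ATG7 and ATG5 were higher in siSIRT6 and ATG12 and ATG3 lower in siSIRT6. Among the hydrolases, CTSD, CTSA and NEU1 were higher in siSIRT6 and GLA and FUCA2 lower in siSIRT6. Of the cargo receptors SQSTM1, OPTN and TAX1BP1 were higher in siSIRT6, and of the pump genes ATP6AP1 and ATP6V0D1 were higher and ATP6V1B2 lower in siSIRT6.

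Levels within the list spanned a wide range. Since FPKM is per length, genes can be ranked, and group means ran from 0.551 (ATG2B) to 279 FPKM (CTSD) in siSIRT6, from 0.729 (ATG2B) to 186 FPKM (CTSD) in siKDM5C and from 0.543 (TFEB) to 153 FPKM (CTSD) in control. The median gene stood at 11.2, 11.2 and 10.6 FPKM. In control SQSTM1 (98.5 ± 20.4 FPKM) and GABARAP (55.5 ± 1.15 FPKM) came after CTSD.

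A wider list of 157 other genes of the pathway, of which 147 were tested, also held rises and falls. After siSIRT6, 49 rose, 32 fell and 66 did not pass, which is 55.1% called against 50.8% of all genes tested. After siKDM5C 39 rose, 28 fell and 80 did not pass, 45.6% called against 51.5% of all genes. Their median log2 fold changes were 0.09 and 0.03, against -0.05 and -0.02 over all genes. FYCO1, an adaptor that moves autophagosomes along microtubules, averaged 6.81 ± 0.0970, 5.99 ± 0.497 and 2.85 ± 0.191 FPKM in siSIRT6, siKDM5C and control (1.02, adjusted p = 6.59e-06, and 0.86, adjusted p = 1.68e-05). RAB7A, the GTPase of late endosomes and lysosomes, averaged 35.9 ± 1.01, 60.8 ± 3.77 and 58.4 ± 4.25 FPKM and fell after siSIRT6 (-0.69, adjusted p = 6.78e-05). Both belong to a list of 14 fusion genes with 6 rises and 4 falls after siSIRT6, and 6 rises and 2 falls after siKDM5C. The shares called were 71.4% and 57.1%, against 50.8% and 51.5% of all genes tested. In this list VPS16, a subunit of the tethering complexes, rose by 0.75 after siKDM5C (adjusted p = 5.75e-05).

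Of 18 other core autophagy genes, 6 rose and 3 fell in either comparison. The share called was slightly below that of all genes tested, which was 50.8% after siSIRT6 and 51.5% after siKDM5C. ULK3, a kinase related to ULK1, rose by 0.76 after siKDM5C (adjusted p = 0.000144), as did ATG4A, a protease for ATG8 proteins (0.52, adjusted p = 0.000139), while WDR45B, a lipid reader of the WIPI family, fell by 0.69 (adjusted p = 1.54e-05). Of 12 other cargo receptors, 5 rose and 5 fell after siSIRT6 (83.3% called, against 50.8% of all genes tested). After siKDM5C 3 rose and 3 fell, a share slightly below the 51.5% called of all genes. The mitochondrial receptor BNIP3 averaged 15.2 ± 0.288, 17.6 ± 0.919 and 22.7 ± 0.957 FPKM in siSIRT6, siKDM5C and control and fell by 0.55 (adjusted p = 6.78e-05) and 0.35 (adjusted p = 0.000874). CALCOCO2, a receptor for bacteria and mitochondria, fell by 0.40 after siSIRT6 (adjusted p = 0.00133), and BNIP3L, a relative of BNIP3, by 0.46 after siKDM5C (adjusted p = 0.00168).

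Other hydrolases also moved both ways. Of 10 other lysosomal proteases, 4 rose and 2 fell after siSIRT6 (60.0% called, against 50.8% of all genes tested). After siKDM5C 2 rose and 2 fell (40.0%, against 51.5%). CTSC, a protease that activates serine proteases, averaged 7.30 ± 0.0938, 7.93 ± 0.243 and 3.30 ± 0.210 FPKM in siSIRT6, siKDM5C and control (0.95, adjusted p = 3.2e-06, and 1.06, adjusted p = 1.65e-06). CTSS, a cathepsin of antigen processing, averaged 0.339 ± 0.0393, 0.148 ± 0.0408 and 1.84 ± 0.0907 FPKM. It fell by 1.08 (adjusted p = 8.94e-06) and 1.31 (adjusted p = 3.33e-06), but passed the filter only through its control libraries. Of 24 glycosidases, sulfatases and lipases, 11 rose and 5 fell after siSIRT6 (66.7% called, against 50.8% of all genes tested). After siKDM5C 7 rose and 3 fell (41.7%, against 51.5%). PPT1, which removes palmitate from proteins, averaged 42.2 ± 0.438, 41.8 ± 1.62 and 28.7 ± 0.433 FPKM and rose by 0.54 (adjusted p = 2.8e-05) and 0.52 (adjusted p = 3.28e-05). IDS, a sulfatase, rose by 0.67 after siSIRT6 (adjusted p = 0.000403), and ARSB, another sulfatase, fell by 0.46 after siKDM5C (adjusted p = 0.000119).

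Of 17 other genes for lysosomal membrane proteins and cofactors, 7 rose and 3 fell after siSIRT6 (58.8% called, against 50.8% of all genes tested). After siKDM5C 5 rose and 2 fell (41.2%, against 51.5%). GM2A, the cofactor of ganglioside breakdown, averaged 45.1 ± 1.01, 16.4 ± 0.629 and 26.4 ± 0.908 FPKM in siSIRT6, siKDM5C and control. It rose by 0.75 (adjusted p = 7.36e-06) after siSIRT6 and fell by 0.65 (adjusted p = 1.63e-05) after siKDM5C. PSAP, the precursor of the saposins, averaged 591 ± 8.36, 604 ± 35.4 and 488 ± 5.57 FPKM and rose by 0.28 (adjusted p = 0.00336) and 0.31 (adjusted p = 0.00195). Of 16 other pump subunit genes, 3 rose and none fell after siSIRT6 (18.8% called, against 50.8% of all genes tested), and 4 rose and 3 fell after siKDM5C (43.8%, against 51.5%). ATP6V1E2 rose by 0.54 (adjusted p = 0.000429) and 0.58 (adjusted p = 0.000284), and ATP6V1C1 fell by 0.53 after siKDM5C (adjusted p = 0.000458). ATP6V0D2, the relative of ATP6V0D1, averaged 0.430 ± 0.0594, 1.20 ± 0.121 and 0.196 ± 0.0738 FPKM and was tested only through its siKDM5C libraries (0.88, adjusted p = 6.22e-05).

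**Figure D4:**
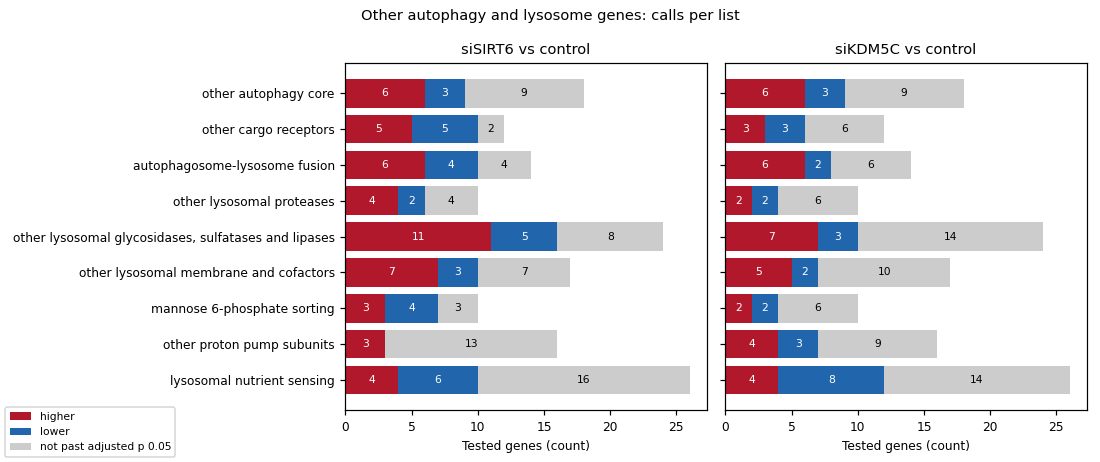
Number of tested genes (horizontal axis) that were higher, lower or not past adjusted p 0.05 in 9 lists of other autophagy and lysosome genes, for siSIRT6 (left) and siKDM5C (right) against control. Rises and falls stand side by side in every list except the other proton pump subunits after siSIRT6, which had 3 rises and no fall.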

How the data were processed

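RNA was measured in 9 PANC-1 libraries made with a stranded mRNA kit, 3 per group. The deposited values are FPKM per gene, made by the authors for each library without pooling. The submitters' processing notes name Trimmomatic, HISAT2, Cufflinks, HTSeq and the hg38 build, and the annotation, tool versions and counting strand are not stated there. Reads shared between overlapping genes can therefore move both. Depth was inferred from the steps between low FPKM values (3 reads of a gene of 1 kilobase correspond to 0.111 to 0.165 FPKM, counting error only).

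The 16135 genes with at least 1 FPKM in 3 libraries were fitted on log2(FPKM + 1) with limma 3.58.1 (R 4.3.3, trend, 9 libraries in 1 fit, group term only). Tests were two-sided with Benjamini-Hochberg adjustment over all genes and a threshold of 0.05. This scale understates changes of genes with low values. The code was tested on simulated data. Overlaps were read from GENCODE release 29 and promoter windows from RefSeq. Values in each library were given for SIRT6, KDM5C, genes past the threshold with at least 0.4 log2, and the smallest adjusted p per role. For other lists up to 3 genes per comparison were named, and genes named as not passing or for contrast were chosen after their values were seen. The genes and lists were chosen with earlier results of these data known. The 16 alternatives were a pseudocount of 0.1, no filter, at least 5 FPKM, median-of-ratios scaling, a replicate block, only the groups compared, protein-coding genes only, and each of the 9 libraries left out. Not every marker of another cell type is reported here.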

Additional observations from a re-analysis of the deposited data

Results flagged for a closer look

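CTSA is singled out because it rose after siSIRT6 and fell after siKDM5C, and the knockdowns differed when set against each other. The difference was 0.36 on the log2(FPKM + 1) scale, siSIRT6 minus siKDM5C (adjusted p = 0.000374), and the 3 siSIRT6 libraries lay above all siKDM5C libraries. The fall after siKDM5C (-0.23, adjusted p = 0.00245) was the larger side, and the rise after siSIRT6 (0.13, adjusted p = 0.0394) was lost in 7 of 16 alternatives, with adjusted p from 0.0161 to 0.124. AL008726.1, an antisense gene over 7.3% of the CTSA exons, had 0.18 and -0.26, and whether it shares reads with CTSA was not tested.

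GM2A stood out for the same reason, with a difference of 1.40 between siSIRT6 and siKDM5C (adjusted p = 1.11e-06), a rise of 0.75 after siSIRT6 and a fall of 0.65 after siKDM5C. Each of the calls against control held in all 16 alternatives. It belongs to the wider list and not to the 50 genes.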

How the results depend on the processing

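Of the autophagy and lysosome genes called, 25 of 30 after siSIRT6, 25 of 28 after siKDM5C and 17 of 24 between the knockdowns were called in all the alternatives that gave a value, and no called gene changed direction. Rises and falls numbered 17 to 23 and 8 to 10 after siSIRT6 with a library left out. They numbered 17 to 19 and 8 to 12 after siKDM5C, and 12 to 17 and 6 to 9 between the knockdowns. In the same fits, rises and falls over all 16135 genes numbered 3255 to 4092 and 3513 to 4695 after siSIRT6. Over all genes they numbered 3583 to 4124 and 3350 to 4277 after siKDM5C, and 2270 to 3342 and 2613 to 3603 between the knockdowns. With at least 5 FPKM in 3 libraries, 9446 genes were tested in place of 16135. The falls over all genes were then 2773 after siSIRT6 (main count 4333). After siKDM5C 2726 rises and 2692 falls were counted (4134 and 4174), and 2255 genes were lower in siSIRT6 than in siKDM5C (3433). Each of these counts was smaller than its main count, but was a larger share of the genes tested. Replicates share numbers in the labels, but same-numbered libraries did not deviate together (r from -0.229 to 0.252), while siKDM5C replicate 1 and control replicate 3 did (r = 0.426). With the replicate number as a block, 21 genes rose and 9 fell after siSIRT6, 18 and 10 after siKDM5C, and 13 and 8 differed between the knockdowns. The counts over all genes with this block are not given here. Values that had not passed changed sign, most near 0 (but ATG16L1 was -0.16 after siKDM5C, SE 0.22), and the cause was not tested. Under median-of-ratios scaling they were, after siSIRT6, ATG101 at 0.04, PIK3C3 at 0.0012, ATG2A at 0.014 and ATG7 at 0.017, and between the knockdowns GABARAP at 0.019, GAA at 0.015 and MAP1LC3B at 0.0026. With a library left out the ranges were, after siSIRT6, ATG101 (-0.03 to 0.057), GABARAPL1 (-0.11 to 0.01), ATG2A (-0.05 to 0.015), RB1CC1 (-0.04 to 0.07), ATG4B (-0.11 to 0.038), CTSL (-0.015 to 0.03), HEXA (-0.022 to 0.06), ATG7 (-0.06 to 0.0072). After siKDM5C they were ATG101 (-0.003 to 0.11), ATG9A (-0.06 to 0.031), RB1CC1 (-0.19 to 0.069), ATG4B (-0.0059 to 0.16), ATG16L1 (-0.40 to 0.06), ATP6V1B2 (-0.012 to 0.08). Between the knockdowns they were ATG101 (-0.11 to 0.0029), GABARAP (-0.04 to 0.018), GAA (-0.07 to 0.044), RB1CC1 (-0.042 to 0.22), MAP1LC3B (-0.08 to 0.051), ATG16L1 (-0.28 to 0.18). Depth limits TFEB most, with about 55 reads in its lowest library, then ATG2B (159), ATG16L1 (183) and ATG14 (241).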

Other observations

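Genes that bring hydrolases to the lysosome, and genes that read its nutrients, were in the wider list. Of 10 genes of mannose 6-phosphate sorting, 3 rose and 4 fell after siSIRT6 (70.0% called, against 50.8% of all genes tested), and 2 rose and 2 fell after siKDM5C (40.0%, against 51.5%). IGF2R, the large receptor for mannose 6-phosphate, averaged 27.7 ± 0.221, 23.4 ± 0.320 and 19.1 ± 0.790 FPKM in siSIRT6, siKDM5C and control (0.52, adjusted p = 3.67e-05, and 0.28, adjusted p = 0.00101). The sorting receptor SORL1 averaged 7.78 ± 0.128, 5.52 ± 0.237 and 12.8 ± 0.996 FPKM and fell by 0.64 (adjusted p = 6.07e-05) and 1.07 (adjusted p = 3.84e-06). GGA1 and GGA3, adaptors of the same route, differed. GGA1 rose by 0.70 after siKDM5C (adjusted p = 6.51e-05), and GGA3 fell by 0.60 after siSIRT6 (adjusted p = 7.23e-05).

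Of 26 genes of nutrient sensing at the lysosome, 4 rose and 6 fell after siSIRT6 (38.5% called, against 50.8% of all genes tested), and 4 rose and 8 fell after siKDM5C (46.2%, against 51.5%). FNIP1, a partner of folliculin, averaged 4.18 ± 0.155, 5.03 ± 0.840 and 8.64 ± 0.956 FPKM in siSIRT6, siKDM5C and control (-0.89, adjusted p = 0.000193, and -0.68, adjusted p = 0.000841). RHEB, the GTPase that activates the mTORC1 kinase complex, fell by 0.58 after siSIRT6 (adjusted p = 0.000126). MTOR, the kinase itself, averaged 11.9 ± 0.0389, 13.7 ± 0.291 and 10.2 ± 0.297 FPKM and rose by 0.39 after siKDM5C (adjusted p = 0.000132), where its partner MLST8 fell by 0.53 (adjusted p = 0.000215).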
